A study of Drosophila melanogaster with 10 samples.

Results

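The G elements are non-LTR retrotransposons (LINEs) of the jockey clade in Drosophila melanogaster. Of the 177 repeat entries in the deposited transposable element (TE) tables, 4 were taken by name: G, G2, G6 and G7. All 4 were present in both assays. They were chosen with earlier results of these data known, and 4 further G-numbered entries are described below. The cells were ovarian somatic cells (OSC), a cultured line from the somatic tissue of the ovary, kept at 26 °C and collected 2 days after 1 round of siRNA transfection. For RNA, poly(A) libraries came from 6 cultures: HP1a, Mael, Armi, CG3893 or Piwi was depleted in 5 of them, and the sixth, the control, received siRNA directed at EGFP. For RNA polymerase II (Pol II), chromatin was immunoprecipitated with the antibody 8WG16 from 4 cultures, with Mael, CG3893 or Piwi depleted in 3 and EGFP siRNA in the control. An HP1a knock-down with Pol II data was not analysed here.

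A LINE is transcribed by Pol II from a promoter inside the element and copied back into the genome at a nicked target site. In the somatic cells of the fly ovary, Piwi loaded with piRNAs silences many TEs in the nucleus. Armi is a helicase needed to make those piRNAs, and Mael and CG3893 act with Piwi in nuclear silencing. HP1a binds histone H3 methylated at lysine 9 and is a structural protein of heterochromatin. A G2-related element, also called Jockey-3, is known from the centromeres of this species.

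Each group held 1 library, so no test across cultures was possible and no p-value is given. RNA levels are in RPKM, which divides reads by the entry's length and the library's total, and Pol II signals are in RPM, which divides by the total alone. Whole reads were computed back from these values, and the 95% intervals below are exact intervals on those reads. They cover counting error only, not the spread between cultures. Library totals found this way ran from 18584526 reads (HP1a) to 36729626 reads (Piwi) for RNA, and from 3313513 reads (Mael) to 4221772 reads (CG3893) for Pol II. Each targeted gene was lower in its own library, with piwi at 30.1% of control, armi at 35.9%, mael at 10.3%, CG3893 at 48.4% and the HP1a gene at 30.2%. In the HP1a library the piwi RNA stood at 73.8% of control, armi at 98.97%, mael at 73.9% and CG3893 at 116%. The 5 follicle cell markers (tj, Fas3, zfh1, piwi and fs(1)Yb) summed to between 622 RPKM, in the Piwi library, where piwi itself was depleted, and 1055 RPKM. In the HP1a library the sum was 845 RPKM, with Fas3 at 108 RPKM against at most 62.7 elsewhere, tj at 151 against at least 190 and fs(1)Yb at 47.2 against at least 60.05.

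RNA of G, G2 and G6 stood between 14.4 (G) and 19.5 times (G6) its highest other library in the HP1a knock-down. In the knock-downs of Piwi, Armi, Mael and CG3893, G2 and G6 were not past 2-fold higher than control. G had 2 to 6 reads in these 4 knock-downs and 1 in the control, too few to fix a ratio. G7 stayed at 1 to 3 reads in every library. A difference was counted as past 2-fold where log2((knock-down + 1)/(control + 1)), on RPKM, reached 1. On that scale 2 of the 4 members, G2 and G6, were past 2-fold higher in HP1a. Of all 177 TE entries, 25 of them at 0 in RNA throughout, 32.8% were, and 45.4% of the 119 whose mean was 1 RPKM or more. G and G7 are not among the 119. With 1 RPKM added, they could pass only at a level above 1 RPKM, so they are left out of the counts that follow. In Piwi 0 of the 2 members among the 119 were past the limit, against 19.3% of the 119 entries. The share of the 119 past the limit was 10.9% in Armi, 35.3% in Mael and 13.4% in CG3893, with 0 of the 2 members in each. No member was past 2-fold lower in any knock-down, where 0.840% of the entries were in Mael and 0% in the others. With 1 RPKM added, only G2, above 1 RPKM in the control, could have been. G2 and G6 were the 2 members that reached a mean of 1 RPKM, and G6 reached it through HP1a alone.

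G2 was the most abundant member at the RNA level. It stood at 41.8 RPKM in HP1a, against 2.23 in the control, 2.87 in Mael, 2.63 in CG3893, 2.05 in Armi and 2.03 in Piwi. The 5 libraries other than HP1a lay within 1.42-fold of each other, and the HP1a library lay far outside them. The HP1a level rested on 2410 reads against 234 in the control, a ratio of 18.8 (16.4 to 21.6). Among the 177 entries G2 moved from rank 88 in the control to rank 41 in HP1a. In Mael the ratio to control was 1.29 (1.07 to 1.55), an interval above 1. The median entry was itself higher in that library, by 0.49 on the log2 scale, and relative to it the log2 change of G2 was -0.23 instead of 0.26. In Piwi the ratio was 0.91 (0.76 to 1.10), in Armi 0.92 (0.74 to 1.14) and in CG3893 1.18 (0.99 to 1.42), and all 3 intervals held 1.

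G6 was also highest in HP1a, at a lower level. Its RNA was at 14.3 RPKM in HP1a, against 0.64 in the control, 0.62 in Mael, 0.68 in CG3893, 0.68 in Armi and 0.73 in Piwi. The 5 libraries other than HP1a, with 31 to 55 reads each, lay within 1.19-fold of each other, and their counting intervals overlapped. The HP1a library held 543 reads, and its ratio to control was 22.5 (16.5 to 31.3). G6 moved from rank 117 of the 177 entries in the control to rank 73 in HP1a. Ratios to control in the other knock-downs ran from 0.97 (0.60 to 1.56) in Mael to 1.15 (0.76 to 1.75) in Piwi.

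G, the entry that gives the family its name, was close to absent from the RNA outside HP1a. It was covered by 6 reads in CG3893, 5 in Piwi, 3 in Armi, 2 in Mael and 1 in the control, which is 0.0068 to 0.044 RPKM. HP1a held 51 reads, or 0.63 RPKM (0.47 to 0.83). With 1 control read the ratio of 93.0 has an interval from 15.9 to 3743, so its size is poorly fixed. Without a pseudocount, the ratio of G to control was 6.46 in CG3893 (0.78 to 297) and 4.61 in Piwi (0.52 to 218). In Armi it was 4.56 (0.37 to 239) and in Mael 2.67 (0.14 to 157). Each of these intervals held 1. Against the knock-downs, which do not share the control, the HP1a level of G was 14.4 times that in CG3893 (6.18 to 41.1) and 34.8 times that in Mael (9.16 to 295). At this level the pseudocount of 1 RPKM hides the difference: the log2 change was 0.70, under the limit, and G is therefore not among the members counted past 2-fold.

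G7 was the member without a higher HP1a value. Its RNA rested on 1 read in HP1a, 2 each in Armi and Piwi, and 3 each in Mael, CG3893 and the control, or between 0.045 and 0.099 RPKM. The ratio of HP1a to control was 0.61, with an interval from 0.012 to 7.57. A difference in G7 RNA of the size seen for G2 would lie outside that interval, but one of a few fold was not detectable at this depth.

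**Figure D1:**
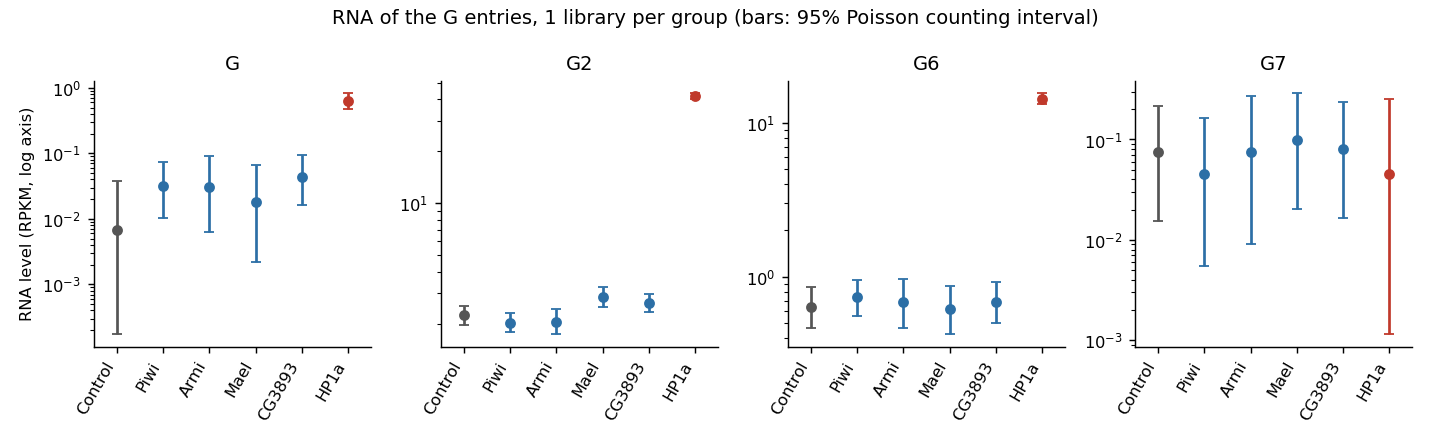
RNA level in RPKM (log axis, a separate range for each panel) of G, G2, G6 and G7 in the 6 libraries, with 95% Poisson intervals on the reads as bars. The HP1a point of G2 (41.8 RPKM) and of G6 (14.3 RPKM) lies above the other 5 libraries, while the G7 intervals overlap in all 6.

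The HP1a library can also be set against the knock-downs of the piRNA factors directly, a comparison in which the control plays no part. G2 RNA was 20.6 times higher in HP1a than in Piwi (18.0 to 23.7), 20.4 times higher than in Armi (17.2 to 24.3), 14.6 times higher than in Mael (12.7 to 16.8) and 15.9 times higher than in CG3893 (14.0 to 18.1). For G6 the ratios lay between 19.5 over Piwi (14.8 to 26.2) and 23.2 over Mael (16.2 to 34.2). G2 and G6 were past 2-fold in each of these 4 comparisons. Of the 119 entries, 30.3% were past 2-fold higher in HP1a than in Piwi, 34.5% than in Armi, 21.0% than in Mael and 33.6% than in CG3893. G6 and some other entries are among the 119 only through their HP1a value, the value compared here. The shares are therefore a description only.

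G2 and G6 held similar shares of the members' RNA reads in the control and in HP1a. The sum over the 4 members in HP1a was 19.4 times control (17.2 to 22.0). The 4 entries held 282 reads in the control and 3005 in HP1a, or 8.33 and 162 RPM. The other knock-downs held between 7.98 and 10.4 RPM. G2 supplied 83.0% of these reads in the control and 80.2% in HP1a, and G6 supplied 15.6% and 18.1%. The shares of the 2 others differed more, on few reads: 0.35% and 1.70% for G, and 1.06% and 0.033% for G7. As a share of all TE reads, the members held 0.0111% in the control (0.0099 to 0.0125) and 0.127% in HP1a (0.122 to 0.131). The contrast was smaller without the entries COPIA and Gypsy1 in the total, where the shares were 0.0633% in the control, 0.285% in HP1a and 0.0345% in CG3893. With them, in CG3893 the share was 0.0105%, and in Armi, Mael and Piwi it was 0.0090%, 0.0089% and 0.0077%.

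Per length, G2 RNA exceeded G6 RNA in every library, by 3.50 times in the control and 2.92 times in HP1a, with a range of 2.76 (Piwi) to 4.65 (Mael) across the 6 libraries. Lengths behind these values, computed from the deposited numbers, were 4346 bases for G, 3102 for G2, 2042 for G6 and 1192 for G7. Reads that match more than 1 of these related entries may have been counted in any of them, since the treatment of such reads is not given in the sources used here.

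The tables hold 4 further G-numbered entries, G3, G4, G5 and G5A, the nearest relatives by name. G5 had the highest ratio to control of these 4 in each of the 5 knock-downs. It stood at 13.1 RPKM in HP1a, 9.33 in Mael, 4.19 in CG3893, 2.74 in Piwi, 2.10 in Armi and 1.44 in the control. Its HP1a level was 9.07 times control (7.89 to 10.5), but 1.40 times the Mael level (1.29 to 1.52), where G2 was at 14.6 times. G5 was past 2-fold in Mael, CG3893 and HP1a on the log2(RPKM + 1) scale.

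G4 stood at 4.16 RPKM in the control and was highest in Mael, at 8.06, against 5.11 in HP1a. Its ratio to control was 1.93 in Mael (1.73 to 2.16), 1.51 in Piwi (1.35 to 1.68), 1.37 in Armi (1.21 to 1.55) and 1.37 in CG3893 (1.22 to 1.53), under the 2-fold limit with all intervals above 1. In Mael, G3 was at 1.53 times control (1.12 to 2.10) and G5A at 1.26 times (1.16 to 1.38). G5A, the most abundant of the 8 at the control level, went from 11.1 RPKM in the control to 18.5 in HP1a, a ratio of 1.66 (1.52 to 1.81). G3 went from 0.51 to 1.27 RPKM, a ratio of 2.48 (1.84 to 3.36) that stays under the limit once 1 RPKM is added. Of these 4 entries, G5 alone was past 2-fold in HP1a.

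**Figure D2:**
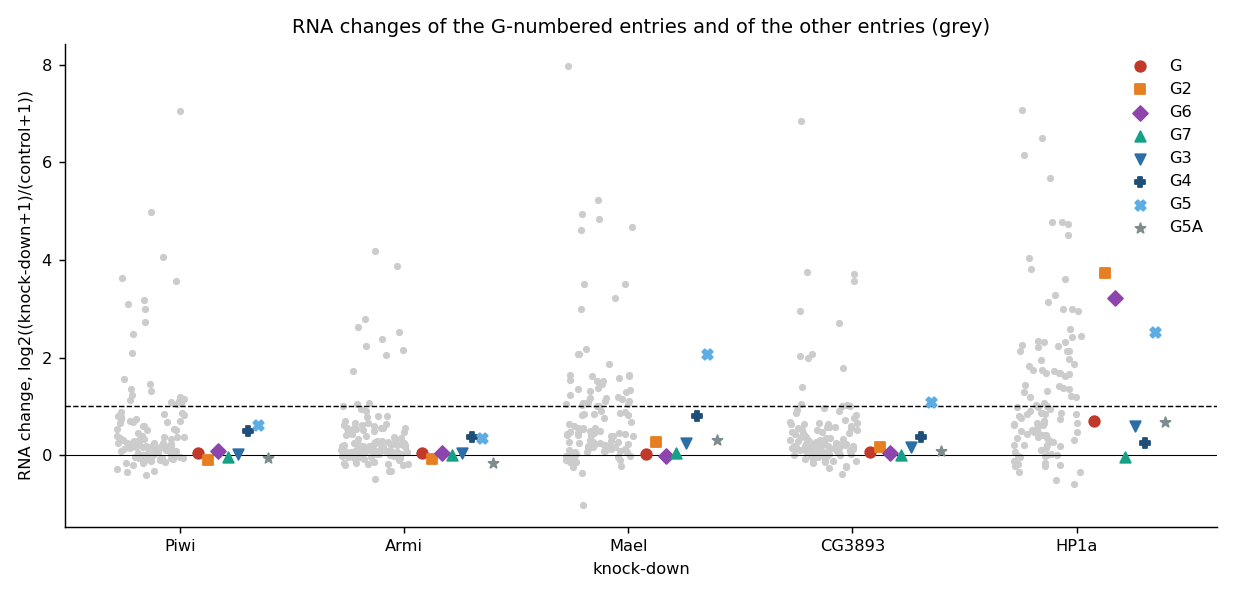
RNA change on the log2((knock-down + 1)/(control + 1)) scale for the 8 G-numbered entries (coloured symbols) and for the 114 other entries whose mean was 1 RPKM or more (grey) in each knock-down, with the 2-fold limit dashed. G2 and G6 sit at 3.73 and 3.23 in HP1a and near 0 in the other columns, while G5 is past the limit in Mael, CG3893 and HP1a.

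Other LINEs gave the members a wider frame. A list of 34 further entries with LINE names held 21 of the jockey clade, 4 telomeric and 9 others. Of the 34, 13 were past 2-fold higher in HP1a, 11 in Mael, 4 in Piwi and 1 each in Armi and CG3893. The shares of all 177 entries were 32.8% in HP1a, 23.7% in Mael, 13.0% in Piwi, 7.91% in Armi and 9.04% in CG3893. These shares are lowered by the 25 entries at 0 in RNA throughout, which could not be past the limit. Among the 29 listed entries with a mean of 1 RPKM or more, 12 were past it in HP1a, beside 45.4% of the 119. The largest log2 changes in HP1a were those of HELENA at 3.29, G5 at 2.53 and BS at 2.23. HELENA, a jockey-clade element, stood at 0.40 RPKM in the control, at 1.06 to 1.82 in the other knock-downs and at 12.7 in HP1a. Over the 29 listed entries whose mean was 1 RPKM or more, the median log2 change in HP1a was 0.84, beside 0.87 over all 119 entries. Those of the list nearest to no change included TLD1, at 0 RPKM in the control and in HP1a, Jockey at 0.15 and TAHRE, a telomeric element, at 0.18. None of the 34 reached 10 times its highest other library in HP1a, and 3 of the 4 members, G, G2 and G6, did. For G the ratio of 14.4, to CG3893, has an interval from 6.18 to 41.1, which includes 10. Of the 124 entries with at least 1 RPKM in HP1a, which leave out G, 7 reached 10 times, G2 and G6 among them. The size of 10 times was chosen after the values were seen and lies between HELENA, at 6.99 times, and those 3 members. The contrast is therefore a description only. Against control alone, HELENA stood at 31.6 times in HP1a, above G6 at 22.5 and G2 at 18.8. The list had no test against the members, as each group held 1 library.

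Over the 124 entries with at least 1 RPKM in HP1a, G6 ranked 3 and G2 ranked 5 by the ratio of HP1a to the highest of the other 5 libraries. That ratio was 19.5 for G6 and 14.6 for G2. The 1 RPKM minimum is set on the HP1a value itself, so entries low elsewhere, G6 among them, enter through the value being ranked, and the ranks are a description only. The entries around them were LTR elements: FROGGER at 146, ACCORD at 26.0, GYPSY3 at 17.2 and GYPSY7 at 13.0. In all, 7 of the 124 entries reached 10 times. G, with a ratio of 14.4, was under 1 RPKM and not ranked.

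**Figure D3:**
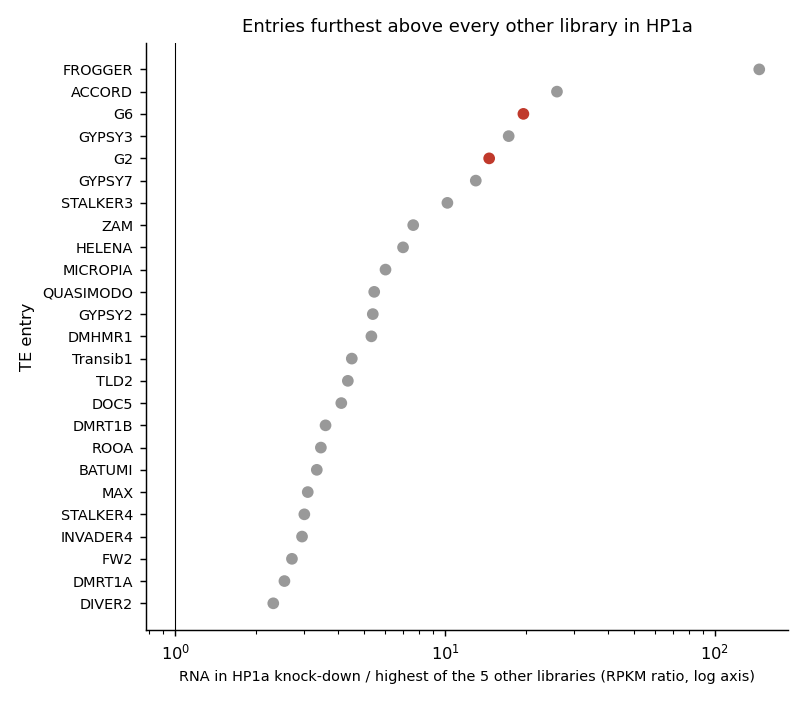
The 25 TE entries with the highest ratio of RNA in the HP1a knock-down to the highest of the 5 other libraries (RPKM ratio, log axis), among 124 entries with at least 1 RPKM in HP1a. The members G6 (19.5) and G2 (14.6), in red, are at ranks 3 and 5.

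The entries whose RNA pattern was most like that of G2 over the 6 libraries, by Pearson's r of log2(RPKM + 1), were ACCORD (r = 0.998), FROGGER (r = 0.997) and GYPSY3 (r = 0.996). For G6 they were GYPSY3 (r = 0.9995), FROGGER (r = 0.999) and MICROPIA (r = 0.999). These values rest on HP1a: over the 5 other libraries r was 0.79, 0.54 and 0.45 for the entries most like G2, and 0.16, 0.29 and 0.85 for those most like G6. Only entries with a mean of 1 RPKM or more were compared, the members left out. ACCORD, GYPSY3 and MICROPIA, at most 0.34, 0.31 and 0.71 RPKM elsewhere, reached that mean only through the HP1a value that also sets r. The same holds for FROGGER, at 0.67 RPKM in the control, at most 1.03 in the other knock-downs and 150 in HP1a. G2 and G6 themselves had r = 0.994 over 6 libraries and -0.64 over the 5 without HP1a. Among genes, the nearest to G2 were regucalcin, Pak3 and MSBP, and the nearest to G6 were Pak3, CG42748 and px, with r between 0.994 and 0.997. Their levels differed far less, Pak3 for example standing at 46.0 RPKM in the control and 56.6 in HP1a. With 1 library per group, these values describe likeness over 6 points only.

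Some markers of other cell types also stood apart in the HP1a library. The 6 germline markers summed to 10.8 RPKM in HP1a and to between 3.87 and 4.20 RPKM in the other libraries. The difference lay mainly in vas, at 6.38 RPKM against at most 1.58 elsewhere, and in aub, at 1.47 against at most 0.47. The germline genes nos and osk were between 0.032 and 0.12 RPKM in all 6 libraries. Among the hemocyte markers, which summed to 29.4 RPKM in HP1a and 18.2 to 21.2 elsewhere, srp was at 21.6 RPKM in HP1a against 8.83 to 11.4, Pxn was at its lowest there, at 7.83 RPKM, and Hml was under 0.03 RPKM throughout. The muscle markers Mhc and Act57B summed to 52.2 RPKM in HP1a, 81.6 in Mael and 133 to 158 elsewhere. Act57B was at 47.9 RPKM in HP1a and 75.6 in Mael against at least 127 elsewhere, and Mhc at 4.32 in HP1a against at least 5.44. The neuron marker elav stood at 12.4 RPKM in HP1a and 9.81 to 11.7 elsewhere. The fat body markers Lsp2 and Fbp1 summed to at most 0.24 RPKM, with Fbp1 listed at 0 in the control. The part of these differences in the G-element result was not tested, and in bulk RNA fewer cells of a type and less RNA per cell cannot be told apart.

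The Pol II assay asks whether polymerase on the elements differs with the knock-down. It covers Mael, CG3893 and Piwi, in which no member was past 2-fold in RNA on the log2(RPKM + 1) scale. A limit of 1.5-fold on log2((knock-down + 1)/(control + 1)), in RPM, was used here. None of the 4 members was past 1.5-fold higher in Piwi, Mael or CG3893, where 7.75%, 8.45% and 9.15% of the 142 entries with a mean of at least 1 RPM were. On the lower side, 0 of 4 members were past the limit in Piwi (1.41% of entries). Of the members, G7 alone was past it in Mael (3.52% of entries) and CG3893 (0.704% of entries). The CG3893 share is 1 of the 142 entries, G7 itself.

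G, nearly without RNA, had the highest Pol II signal of the 4. It held 378 RPM in CG3893, 323 in Mael, 302 in Piwi and 301 in the control, on 1046 to 1597 reads. The ratio to control was 1.26 in CG3893 (1.16 to 1.35), an interval above 1. It was 1.07 in Mael (0.99 to 1.16) and 1.00 in Piwi (0.92 to 1.09). G2 held 230 RPM in CG3893, 189 in the control, 188 in Mael and 182 in Piwi, with a ratio in CG3893 of 1.22 (1.11 to 1.34). The median entry of the CG3893 library was higher by 0.12 on the log2 scale, and relative to it the log2 changes were 0.20 for G and 0.16 for G2.

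G6 held 69.3 RPM in the control, 67.0 in CG3893, 63.4 in Piwi and 57.9 in Mael, and the interval of each ratio to control held 1. G7 held 5.19 RPM in Piwi on 18 reads, 4.86 in the control on 20, 2.72 in Mael on 9 and 2.13 in CG3893 on 9. The G7 ratio was 0.56 in Mael (0.22 to 1.28) and 0.44 in CG3893 (0.18 to 1.01), so both intervals reached 1 and the differences were within counting error. Of the relatives, G5 had the largest Pol II difference, at 1.42 times control in CG3893 (1.28 to 1.57) and 1.21 times in Mael (1.08 to 1.35), while its RNA stood at 2.91 and 6.47 times control. G4 went the other way in Mael, with Pol II at 0.80 times control (0.66 to 0.95) and RNA at 1.93 times. The other Pol II intervals of the relatives held 1.

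**Figure D4:**
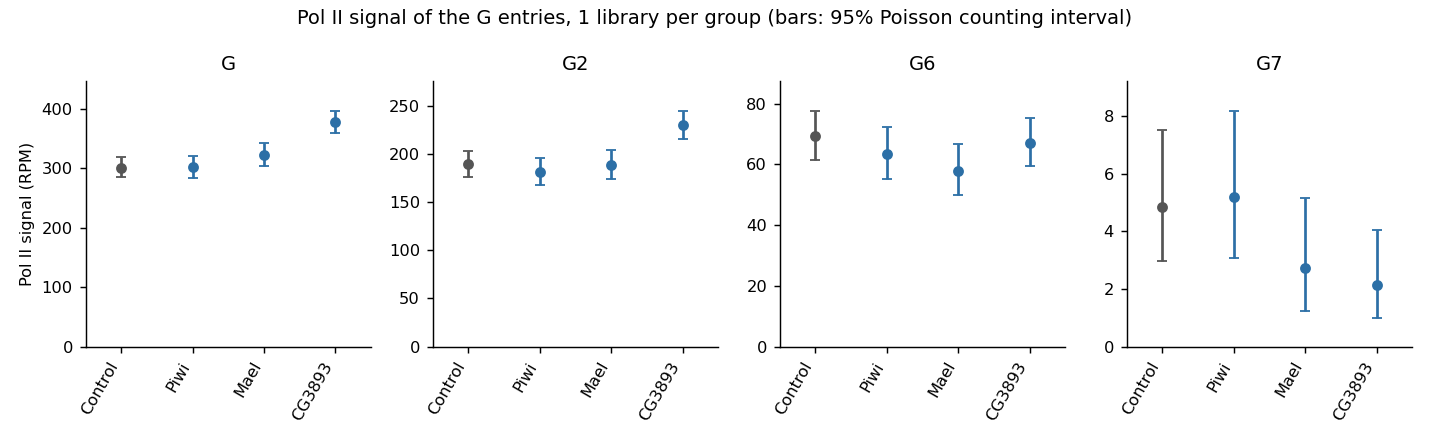
Pol II signal in RPM (linear axes from 0, a separate range for each panel) of G, G2, G6 and G7 in the 4 libraries, with 95% Poisson intervals on the reads as bars. G and G2 are highest in CG3893 (378 and 230 RPM), and the G7 points rest on 9 to 20 reads.

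Set per kilobase, the control Pol II signal was 69.3 RPM per kb for G, 61.0 for G2, 33.9 for G6 and 4.08 for G7. The median was 43.5 RPM per kb over the 124 entries with at least 10 RPM in the control and a recovered length, among which G ranked 40, G2 ranked 49 and G6 ranked 74. RNA per unit of Pol II signal (RPKM divided by RPM per kb) was 9.8e-05 for G, 0.036 for G2 and 0.019 for G6, beside a median of 0.13. G ranked 3 from the lowest of the 124 by this ratio, after ARS406 and DMSAT6, which are listed at 0 in RNA. It ranked 2 or 3 from the lowest in the other libraries too. Of the relatives, G5 and G3 also lay below the median, at 0.046 and 0.096, and G4 and G5A above it, at 0.21 and 0.42. No chromatin input library was used here, so reads from genomic copies without polymerase cannot be told apart from Pol II signal.

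**Figure D5:**
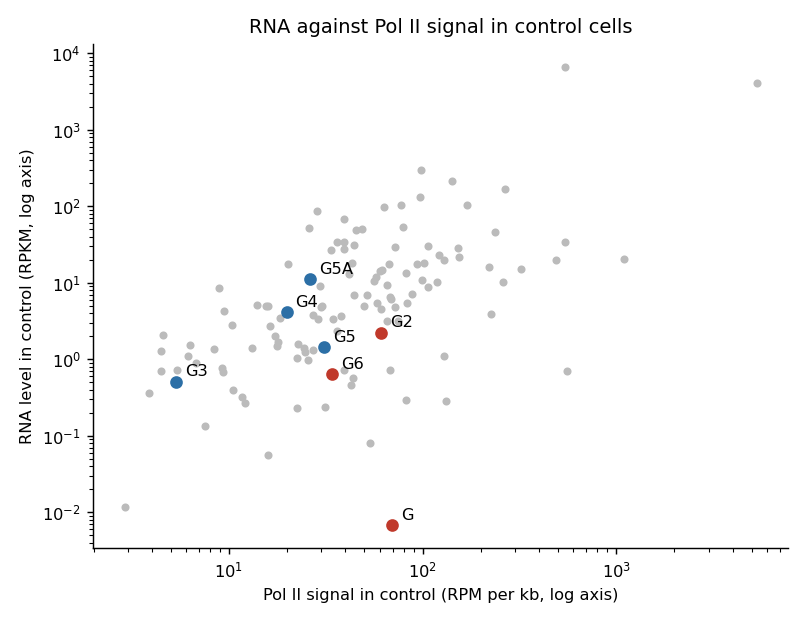
RNA level (RPKM) against Pol II signal (RPM per kb) in control cells, both on log axes, for 122 TE entries (grey), with the members in red and the relatives G3, G4, G5 and G5A in blue; 2 further entries listed at 0 in RNA and G7, under 10 RPM, are not drawn. G lies below the other entries of like Pol II signal, at 0.0068 RPKM and 69.3 RPM per kb.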

How the data were processed

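Per the file headers, the authors deposited RPKM for 177 TE entries and for genes in 6 RNA libraries, and RPM for the same entries in 4 Pol II libraries. Build dm3, cutadapt and Bowtie2 2.0.0 are named for both assays, and Cufflinks 2.0.2 and TopHat2 2.0.7 for RNA, per the submitters' processing notes. The TE sequence set is not given in the sources used here.

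Whole reads were computed from the values: Pol II values are multiples of 1 read within 0.01 reads for 148 of 148 entries above 0, and a search for totals and lengths made the RNA values whole for 152 of 152, with a tolerance of 0.002 reads or, where larger, the files' rounding. Such a search returns a best fit, and a length can be a divisor of the true one. It was tested on simulated data. A separate check on low values alone did not accept the recovered Pol II reads as whole, so the Pol II intervals rest on the multiples found over all values. No count test was run on these reads.

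Intervals are 95% Clopper-Pearson for ratios and shares, and exact Poisson for levels. Limits of 2-fold (RNA) and 1.5-fold (Pol II) used a pseudocount of 1; printed ratios use none. Members, lists and limits were chosen with earlier results of these data known. Lists were matched by name, so single entries, such as TLD1, may be placed wrongly. Named are the 4 members, the other G-numbered entries, the targeted genes, the 3 LINEs highest in HP1a among those past the limit and the 3 nearest to 0, and the 3 TE entries and 3 genes most like a member in RNA; likeness over 4 Pol II libraries is not given. Gene rows with a repeated name were summed. Of 20 marker genes, 19 were found. Python 3.11.15, NumPy 2.4.6, pandas 2.3.3, SciPy 1.17.1 and Matplotlib 3.10.9 were used.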

Additional observations from a re-analysis of the deposited data

How the results depend on the processing

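The number of members past the RNA limit in HP1a, 2 against control and against each other knock-down, was 3 with a pseudocount of 0.1 RPKM, where G joined, and against control also 3 with a 1.5-fold limit. It was 2 with a pseudocount of 5 RPKM, with centring on the median TE entry or gene and, against control, with a 4-fold limit. In the other knock-downs it stayed at 0 under these settings, each of which adds a pseudocount. Centring on TE entries took 0.87 (log2) from every HP1a change, leaving G2 at 2.86 and G6 at 2.36. A pseudocount of 0.1 put them at 4.17 and 4.29, and one of 5 at 2.70 and 1.78. In Pol II, the member past 1.5-fold lower in Mael and in CG3893, G7, became 0 with a pseudocount of 10 RPM, and a limit of 1.2-fold gave 2 members higher in CG3893 instead of 0. Without COPIA and Gypsy1 in the total, the members' share of TE reads was 0.285% in HP1a, 0.0633% in the control, 0.0345% in CG3893, 0.0326% in Armi, 0.0207% in Piwi and 0.0205% in Mael, so that HP1a lay closer to the control and CG3893 further below it than with them. Where a mean of 10 RPKM or more was asked for, 17.1% of entries were past the limit in Armi, instead of 10.9%. No paired analysis was possible because each group held 1 library and the labels carry no replicate numbers. No replicate could be left out for the same reason. Depth limits G7, and G outside HP1a, to 1 to 6 RNA reads.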
